A study of Rattus norvegicus with 10 samples.

Results

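The NF-kB genes examined here are 7 genes, Bcl3, Nfkbia, Nfkbib, Nfkb1, Nfkb2, Rela and Relb, which code for subunits of the transcription factor NF-kB or for proteins of its inhibitor family. They were taken as the Affymetrix probe sets whose platform annotation gives 1 symbol and that symbol is 1 of the 7, which found 9 probe sets, 3 for Bcl3 and 1 for each of the others, among 14217 genes with a symbol of their own on the array. The genes were chosen with the mulberry-control difference of these arrays known, since Bcl3 had been picked out as lower with mulberry on probe set 1398482_at. Their differences between the groups are therefore given as a description, without a test.

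Livers came from 5 Wistar/ST rats given dried mulberry leaf powder, a food supplement, in a daily dose of 500 mg/kg body weight, and from 5 control rats that received 0 mg/kg. All 10 rats ate a high-fat diet for 7 weeks and were dosed by gastric probe with a carboxymethylcellulose suspension after an overnight fast. On which days of the week they were dosed is not reported here. Each rat had its own array, so replicate error here covers animals as well as arrays. Sex and age are not given in the sources used here. Whole liver was measured, so fewer cells of a type and less RNA per cell cannot be told apart. Of 12 hepatocyte markers 11 had a named probe set and all 11 lay above the intensity filter, with albumin (Alb) at 32630 ± 5586 in mulberry and 30280 ± 5907 in control rats (mean intensity ± SD, n = 5 each).

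NF-kB is a family of dimeric transcription factors that switch on inflammatory, immune and survival genes. In resting cells IkB proteins hold the dimers in the cytoplasm; a signal from a cytokine or Toll-like receptor activates the IKK kinases, which mark IkB for destruction and free the dimer to enter the nucleus. Rela and Relb code for subunits with an activation domain, whereas Nfkb1 and Nfkb2 code for precursors that are processed to p50 and p52, which lack one. Nfkbia and Nfkbib code for the cytoplasmic inhibitors IkB-alpha and IkB-beta. Bcl3 codes for an atypical, mostly nuclear IkB protein that binds p50 or p52 homodimers on DNA and can act as coactivator or corepressor. In liver, both hepatocytes and Kupffer cells use this pathway in the response to endotoxin and cytokines.

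Several of these genes are themselves known NF-kB targets, so their promoters were searched for the kB consensus before asking whether their RNAs varied together. The motif was G, G, G, a purine, any base, A or T, a pyrimidine, a pyrimidine, C and C, read on both strands, in the 300-base window from 250 bases before to 50 bases after each RefSeq start (assembly GRCr8). Of the 7 genes, 6 had a window in the table, and 4 of these held 1 match each, Bcl3, Nfkbia, Nfkb1 and Nfkb2. Over all 33469 windows of that length 4.18% held a match. The 4 matches are shown 5′ to 3′ along the gene, with the matching bases in capitals.
Bcl3: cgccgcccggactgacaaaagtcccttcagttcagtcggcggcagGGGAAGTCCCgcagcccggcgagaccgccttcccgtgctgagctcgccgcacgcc
Nfkbia: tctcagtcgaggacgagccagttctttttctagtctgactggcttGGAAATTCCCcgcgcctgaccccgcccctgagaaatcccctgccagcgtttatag
Nfkb1: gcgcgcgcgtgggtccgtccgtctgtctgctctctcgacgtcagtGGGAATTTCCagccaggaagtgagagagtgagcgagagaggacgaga
Nfkb2: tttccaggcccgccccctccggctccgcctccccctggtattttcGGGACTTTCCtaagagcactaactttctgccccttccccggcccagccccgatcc
The stretches lie at chr1:88613539-88613638 on the minus strand for Bcl3, chr6:78597049-78597148 on the minus strand for Nfkbia, chr2:226805413-226805504 on the minus strand for Nfkb1 and chr1:255108309-255108408 on the plus strand for Nfkb2. The match begins 38 bases before the start in Bcl3, 31 before it in Nfkbia and 20 before it in Nfkb2, and lies just inside the transcribed part in Nfkb1. In Bcl3 and Nfkbia the consensus reads along the opposite strand. The windows of Nfkbib and Rela held no match, which says only that these letters are not in those windows. A match is a description of sequence and does not show that a factor binds there in these livers.

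Bcl3 was lower in the mulberry rats on each of its 3 probe sets, but the groups were apart on only 1 of them. On probe set 1398482_at the mulberry rats 1 to 5 had intensities of 382, 501, 409.7, 435 and 492, against 594, 527, 568, 636 and 577 in control rats 1 to 5. Every mulberry rat lay below every control rat there, with a gap of 26.6 between the highest mulberry and the lowest control rat. Means were 444 ± 51.5 in mulberry and 580.5 ± 39.5 in control rats (SD, n = 5 each), so the mulberry mean was lower by 23.5%. On the log2(intensity + 16) scale the difference, mulberry minus control, was -0.38 ± 0.11 (SE of the limma fit).

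The other Bcl3 probe sets showed smaller differences within overlapping groups. Probe set 1385627_at read 199, 239, 186, 141 and 185 in mulberry rats, against 194, 262, 176, 272 and 180.3 in control rats. Only mulberry rat 4 lay below all control rats, and the log2 difference was -0.17 ± 0.17, or -0.080 without that rat, -0.091 without control rat 4 and -0.10 without control rat 2. Probe set 1380414_at read 132, 153, 128, 97.3 and 154 in mulberry rats, against 154, 148, 205, 134 and 132 in control rats. There mulberry rats 1, 3 and 4 lay below all control rats, control rat 3 was the highest, and the difference was -0.20 ± 0.17, or -0.10 without mulberry rat 4 or without control rat 3. Averaged over the 3 probe sets on the log2 scale, Bcl3 stood at 7.90 ± 0.19 in mulberry and 8.15 ± 0.089 in control rats (SD, n = 5 each), a difference of -0.25, with 3 of 5 mulberry rats below the lowest control rat.

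**Figure D1:**
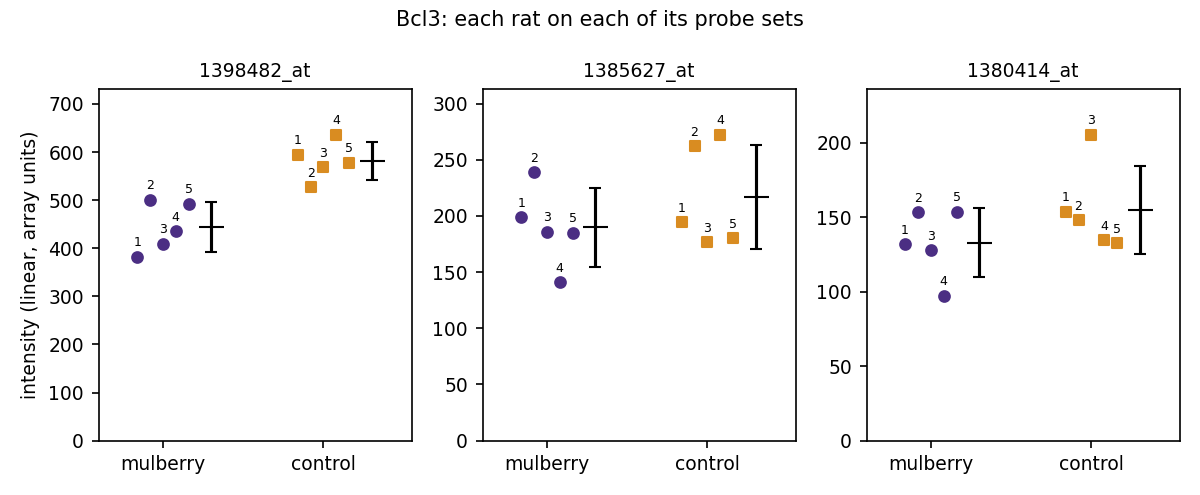
Intensity (linear array units, vertical axis from 0) of Bcl3 in each mulberry and control rat on its 3 probe sets; points carry the rat number, and black bars give mean ± SD (n = 5 each). The groups are apart on probe set 1398482_at and overlap on 1385627_at and 1380414_at.

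The 3 probe sets varied together only weakly from rat to rat. With the mean of each group removed, the Pearson r over the 10 rats was 0.20 between 1398482_at and 1385627_at (rho = 0.15), 0.20 between 1398482_at and 1380414_at (rho = 0.21) and 0.16 between the remaining pair (rho = 0.042). Permuting rats within groups gave p = 0.597, 0.617 and 0.693 for r, all 0.693 after Benjamini-Hochberg adjustment over the 3 pairs, and p = 0.701, 0.589 and 0.924 for rho, all 0.924 adjusted. Without the pair of rats farthest from the median, r was 0.036 for 1398482_at with 1385627_at, 0.37 for 1398482_at with 1380414_at and 0.17 for the remaining pair. This check was added after the values were seen. The separation on 1398482_at also depended on the scaling between arrays. It ended with quantile normalization (log2 difference -0.39, 4 of 5 mulberry rats below the lowest control rat) and with a shift of each array to a common median (-0.41, also 4 of 5), while the difference itself stayed near its size.

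Set against the whole table, limma called 0 of 18625 tested probe sets at an adjusted p of 0.05 (0.0% of those tested), and 325 (1.74%) at an unadjusted p under 0.05. Probe sets whose mulberry rats all lay below all control rats numbered 26, which is 0.14% of those tested. All 9 probe sets of the 7 genes passed the filter on low values. Since Bcl3 was chosen for its difference, nothing is read from these shares about it.

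Nfkbia, the IkB-alpha gene, had the next largest difference among the 7. Its intensities were 2124, 2159.8, 1244, 1977 and 1899 in mulberry rats, against 2456, 2137, 2123, 2449 and 1702 in control rats. The groups overlapped, and mulberry rat 3 stood well below all other rats. The log2 difference was -0.22 ± 0.16, or -0.080 without mulberry rat 3. Nfkbib, the IkB-beta gene, read 561, 794, 703, 777 and 801 in mulberry rats, against 701, 693, 756, 708 and 667 in control rats. Here 3 mulberry rats lay above and mulberry rat 1 below all control rats, and the difference was +0.032 ± 0.12, with a sign that turned without mulberry rat 2 or mulberry rat 5.

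The genes of the precursor subunits overlapped between the groups. Nfkb1, which codes for p105 and p50, read 758, 796, 842, 567 and 781 in mulberry rats, against 699, 944, 864, 609 and 939 in control rats. The difference was -0.10 ± 0.15, with rat 4 the lowest in each group, and it came to -0.0099 without mulberry rat 4 and to -0.20 without control rat 4. It was -0.046 without control rat 2 and -0.048 without control rat 5. Nfkb2, which codes for p100 and p52, read 152, 122, 92.0, 139 and 159 in mulberry rats, against 154, 112, 105, 156 and 144 in control rats. Its groups covered nearly the same range and its difference was -0.018 ± 0.18, a sign that turned when 1 of 5 single rats was left out.

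The genes of the activating subunits also overlapped. Rela, which codes for p65, the activating partner of p50 in the commonest dimer, read 1038, 1038, 1101, 829.9 and 1164 in mulberry rats, against 1074, 996, 975, 889 and 963 in control rats. The difference was +0.071 ± 0.11, with mulberry rats 3 and 5 above all control rats and mulberry rat 4 below them. It ranged between 0.027 without mulberry rat 5 and 0.15 without mulberry rat 4, and was also smaller without mulberry rat 3 (0.046), without control rat 4 (0.037) and with a median shift (0.043). Relb, the partner of p52 in the alternative pathway, read 79.7, 67.8, 109.5, 71.5 and 124 in mulberry rats, against 116, 97.96, 94.5, 47.4 and 115 in control rats. It was the dimmest of the 9 probe sets, not far above the filter level of 61.1, and control rat 4 fell below that level. The difference was -0.035 ± 0.24, or -0.22 without control rat 4, and its sign turned when 1 of 4 single rats was left out.

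**Figure D2:**
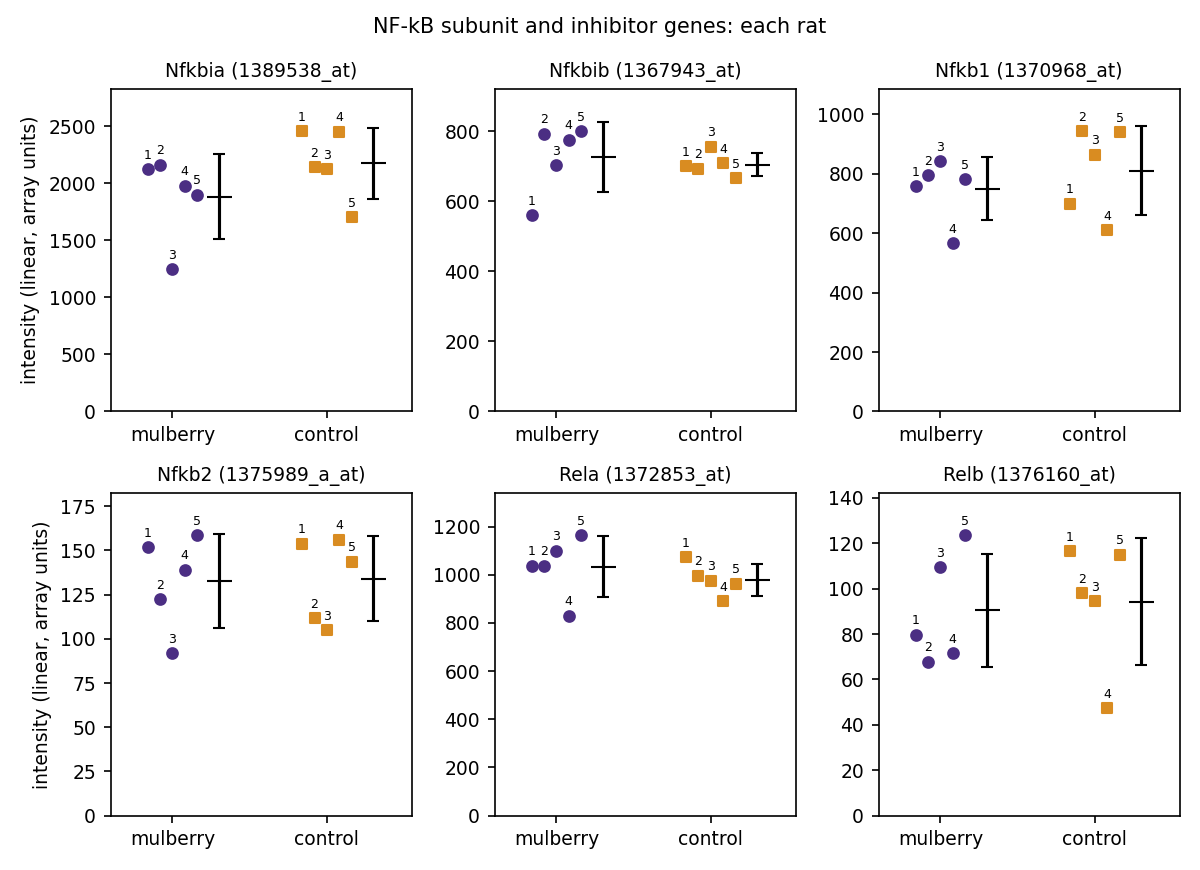
Intensity (linear array units, vertical axis from 0) of the 6 other NF-kB genes in each mulberry and control rat; points carry the rat number, and black bars give mean ± SD (n = 5 each). The groups overlap for all 6, and mulberry rat 3 is the low point of Nfkbia.

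Over the 7 genes, each by its brightest probe set, 5 had a lower and 2 a higher mean in the mulberry rats, with a median log2 difference of -0.035. Lower means made up 48.7% of all 10328 genes tested, whose median was +0.0035. By probe set 7 of 9 had a lower mean, against 47.5% of all probe sets tested. Bcl3 is among the 5 genes and its 3 probe sets are among the 7. Since it was chosen as lower with mulberry, nothing is read from the comparison with these shares. The 5 lower means fell to 3 without control rat 1 or without control rat 5, so the split of 5 and 2 rests on single rats.

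**Figure D3:**
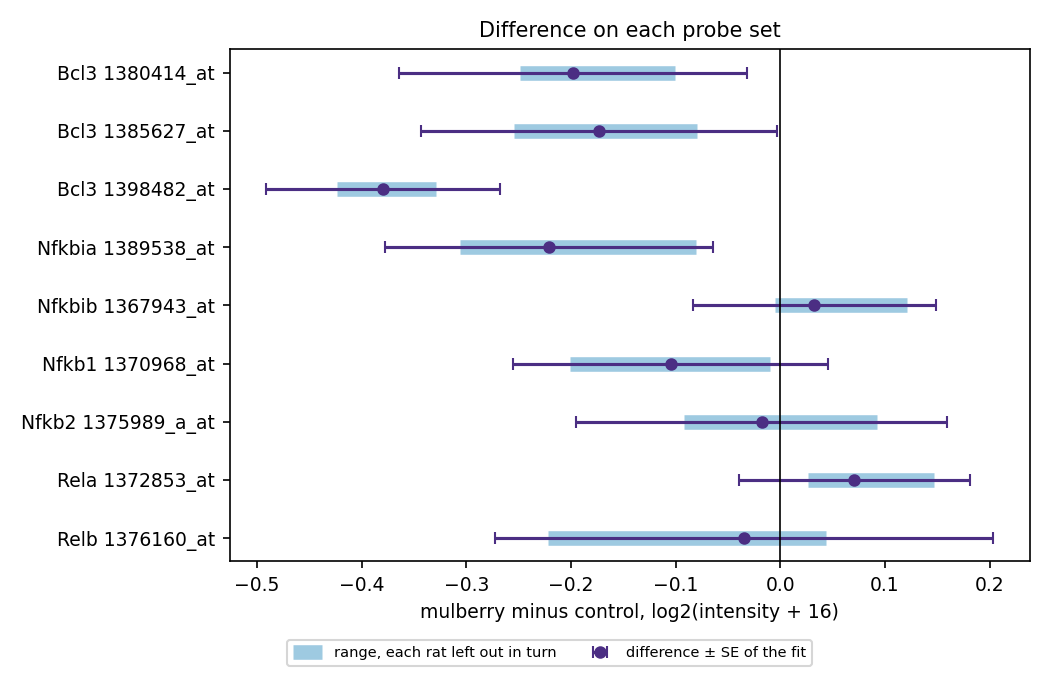
Log2(intensity + 16) difference, mulberry minus control (horizontal axis), for the 9 probe sets of the 7 NF-kB genes; points and whiskers give the difference ± SE of the fit, and pale bars the range when each rat is left out in turn. The pale bars of all 3 Bcl3 probe sets, Nfkbia and Nfkb1 lie left of 0, and that of Rela lies right of it. The whiskers of Nfkb1 and Rela nevertheless cross 0. The ranges of Nfkbib, Nfkb2 and Relb cross 0.

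The choice of the 7 genes used the difference between groups, not the variation between rats of a group, so that variation was tested. Pearson r of the log2 values over the 10 rats with group means removed was computed for the 21 pairs and tested with 100000 permutations of rats within groups. The coefficients ran between -0.54 and 0.73, 9 positive and 12 negative. After adjustment 0 of 21 pairs passed 0.05, and 2 had an unadjusted permutation p under 0.05, for r as for Spearman's rho; the smallest adjusted p was 0.346 for r and 0.371 for rho.

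Rela and Relb had r = 0.69 (permutation p = 0.0173, adjusted p = 0.346) and rho = 0.70 (permutation p = 0.0392, adjusted p = 0.371), and r = 0.78 without mulberry rats 4 and 5. Their r was 0.51 with a median shift and 0.61 without mulberry rat 5, against 0.74 with quantile normalization and 0.86 without mulberry rat 4. Bcl3 and Nfkbib had r = 0.73 (permutation p = 0.0365, adjusted p = 0.346) and rho = 0.71 (permutation p = 0.0679, adjusted p = 0.371). That relation was weaker without mulberry rat 1, the lowest rat for both genes. There r was 0.53 without it and 0.44 without mulberry rats 1 and 2, and with the mean of the 3 Bcl3 probe sets it was 0.28. Among the 4 genes with a kB match in the window, Nfkbia and Nfkb2 had r = 0.59 (permutation p = 0.0988, adjusted p = 0.346; rho = 0.47, permutation p = 0.199, adjusted p = 0.618), while Nfkb1 ran opposite to Nfkbia with r = -0.54 (permutation p = 0.0919, adjusted p = 0.346; rho = -0.62, permutation p = 0.0445, adjusted p = 0.371). Without the pair of rats farthest from the Nfkbia median, mulberry rat 3 and control rat 5, these were 0.57 and -0.43. For Nfkbia with Nfkb2, however, r fell to 0.10 without mulberry rat 3 alone and was 0.77 without control rat 5 alone. For Nfkbia with Nfkb1 it was -0.55 and -0.45. Nfkb1 with Rela (r = 0.60) and with Relb (r = 0.61) had an adjusted permutation p = 0.346 each, and rest on rat 4 of both groups, since r was -0.49 and -0.066 without them. Bcl3 had r = 0.33 with Nfkbia, 0.36 with Nfkb2 and -0.30 with Nfkb1, adjusted p = 0.894, 0.864 and 0.864 by permutation, and without mulberry rats 1 and 2 these r were 0.53, 0.83 and -0.50. With the mean of the 3 Bcl3 probe sets they were 0.34, -0.050 and 0.23, and with a median shift 0.58, 0.55 and 0.038.

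**Figure D4:**
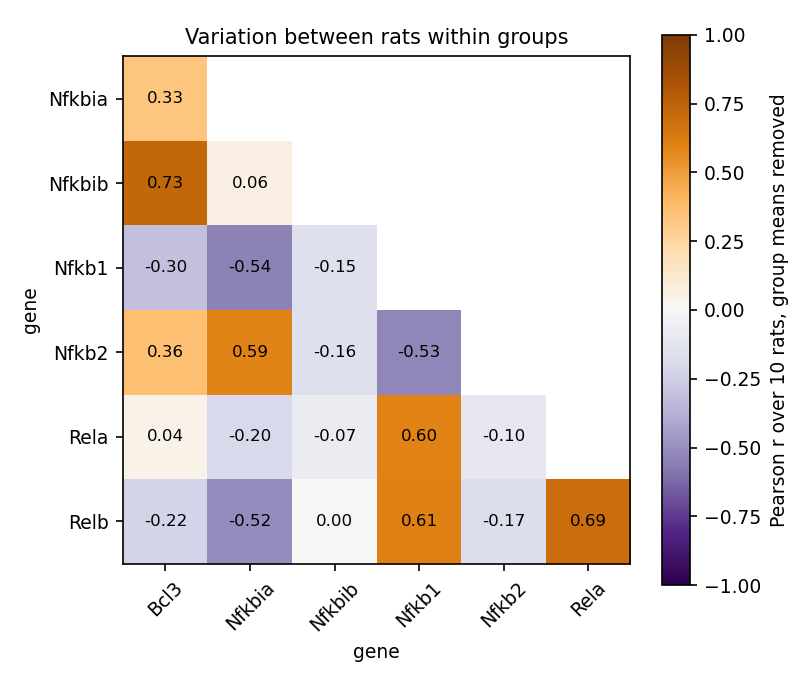
Pearson r between the NF-kB genes over 10 rats with group means removed (colour and printed value, each gene on the horizontal axis against each on the vertical axis). Values reach 0.73 for Bcl3 with Nfkbib and 0.69 for Rela with Relb, and 0 of the 21 pairs passed the adjusted threshold.

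The other genes tested were also ranked by likeness to Bcl3 across rats. This used probe set 1398482_at alone, which varied only weakly with the other Bcl3 probe sets. Ranked by the same r with probe set 1398482_at among 10327 genes, the highest were Pgp, a phosphoglycolate phosphatase gene, at 0.94, C5h1orf122 at 0.92, Slc35e1 at 0.91, the clock gene Per1 at 0.91 and the autophagy gene Map1lc3a at 0.91. The lowest were Nup188, a nuclear pore gene, at -0.91, the cytokine gene Il15 at -0.91 and Dtwd1 at -0.89. With 10 rats and this many genes, coefficients of this size are picked from the ends of a ranking and are given as a description. In the same ranking Nfkbib stood at place 136, Nfkb2 at 1753, Nfkbia at 2000, Rela at 4759, Relb at 7268 and Nfkb1 at 7998.

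Markers of other liver cells were set beside Bcl3. The neutrophil genes S100a9 and S100a8, a calcium-binding pair, had lower means in mulberry rats, S100a9 at 132 ± 41.3 in mulberry and 232 ± 31.0 in control rats and S100a8 at 54.5 ± 24.0 in mulberry and 86.3 ± 7.80 in control rats (SD, n = 5 each). Their log2 differences were -0.77 ± 0.19 and -0.62 ± 0.27, and both missed the limma threshold (adjusted p = 0.9999). The S100a8 difference was -0.36 without mulberry rat 3, the lowest rat, and -0.37 with a pseudocount of 64. Its mulberry mean lay under the filter level of 61.1, so S100a8 passed the filter through the control rats. Of 11 neutrophil markers, 7 had a named probe set, 4 with a lower and 3 with a higher mean, only these 2 passed the filter, and Mpo and Elane had no named probe set. The summed intensity of the 7 ranged over 213 to 379.9 in mulberry and 344 to 472 in control rats. Much of that sum comes from S100a9 and S100a8, which alone summed to 114 to 273 in mulberry and 268 to 365.5 in control rats.

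Within groups, Bcl3 had r = 0.13 and rho = -0.067 with the mean of the 2 neutrophil genes (permutation p = 0.817 and 0.875, adjusted over 7 marker lists p = 0.817 and 0.875). That mean includes S100a8, which was under the filter level on average in the mulberry rats. For Kupffer cells and macrophages 10 of 13 markers had a probe set and all 10 passed the filter, 7 with a higher and 3 with a lower mean, with sums of 14710.4 to 33436 in mulberry and 22544 to 31920.3 in control rats. Cd68, a lysosomal macrophage protein, was at +0.39 ± 0.18, the haemoglobin scavenger receptor gene Cd163 at +0.14 ± 0.20 and the Kupffer cell lectin gene Clec4f at +0.15 ± 0.20, each with a limma adjusted p = 0.9999, and Marco had no named probe set. The 3 markers with a lower mean were Lyz2 at -0.96 ± 0.53, Cd14 at -0.38 ± 0.14 and Csf1r at -0.018 ± 0.21. Their limma adjusted p was 0.9999 as well, and the Lyz2 difference was the largest of the list in either direction. When each rat was left out, Cd163 ranged between -0.00020 (without mulberry rat 4) and 0.25 (without mulberry rat 3), and Clec4f between 0.050 (without mulberry rat 5) and 0.32 (without mulberry rat 3). Bcl3 had r = 0.41 and rho = 0.37 with this list (permutation p = 0.37 and 0.361, adjusted p = 0.609 and 0.619), or r = 0.44 without the pair of rats farthest from the Bcl3 median. Of the other lists, 0 of 5 passed, with r between -0.56 for 8 endothelial and -0.25 for 11 hepatocyte markers and smallest adjusted permutation p = 0.608 for r. Without the pair of rats farthest from the Bcl3 median, r turned to 0.27 for the hepatocyte and 0.23 for the stellate cell list. The part of these cells in the Bcl3 difference was not tested.

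Among the remaining IkB genes, Nfkbiz, an inducible nuclear IkB protein related to Bcl3, was carried by 1 rat. On its tested probe set 1378032_at it read 731, 835, 538, 824 and 512 in mulberry rats, against 2738, 981, 809, 545 and 704 in control rats. Control rat 1 was far above the others, and the difference was -0.51 ± 0.34 (limma adjusted p = 0.9999), or -0.14 without that rat. Its other probe set, 1380798_at, lay under the filter level on average and pointed the other way, at 75.1 ± 21.2 in mulberry and 43.5 ± 25.4 in control rats. Nfkbid, a further nuclear IkB gene, read 15.9 ± 5.82 in mulberry and 16.5 ± 5.61 in control rats (SD, n = 5 each), below the filter. Rel and Nfkbie are not analysed here.

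The wider pathway was described with 8 gene lists, of which 106 genes other than the 7 were tested. Of these, 57 means were higher and 49 lower in the mulberry rats, with a median log2 difference of +0.0060, against +0.0035 over all genes. With limma 0 of 106 passed an adjusted p of 0.05 in either direction, and at an unadjusted p under 0.05 there were 1 higher, Tab1, and 3 lower, Cd14, Gadd45b and Myc. Over all genes 1.13% were higher and 0.658% lower at that unadjusted threshold. The lists were chosen with earlier results of these data known, so nothing is read from the comparison with these shares. All differences in the following 4 paragraphs missed the adjusted threshold, with limma adjusted p = 0.9999.

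Ligands and receptors came first in the pathway. All 4 tested ligand genes of 10 had higher means (median +0.15), among them Ltb, a membrane-anchored cytokine of lymphocytes, at 106 ± 26.3 in mulberry and 85.5 ± 26.2 in control rats (+0.29 ± 0.24), and the interleukin gene Il18 at +0.099 ± 0.15. Ltb was at 0.10 without control rat 5 and 0.19 without mulberry rat 2, and Il18 ranged between 0.026 (without control rat 4) and 0.19 (without mulberry rat 3). Of 30 receptor and adaptor genes 23 were tested, 9 with a higher and 14 with a lower mean (median -0.024). Cd14, the lipopolysaccharide co-receptor, read 5095, 3335, 3503, 3016 and 4242 in mulberry rats, against 5174, 4122, 5677, 5388 and 4327 in control rats. Mulberry rats 2, 3 and 4 lay below all control rats, and the difference was -0.38 ± 0.14. Tradd, the adaptor of the TNF receptor, was at 284 ± 43.2 in mulberry and 337 ± 38.6 in control rats (-0.24 ± 0.13).

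The kinase step was mixed. Of 19 genes of kinases and ubiquitin ligases 16 were tested, 9 with a higher and 7 with a lower mean (median +0.015). Tab1, which activates the kinase upstream of IKK, read 468, 343, 439.9, 347 and 436 in mulberry rats, against 331, 311, 324, 320.4 and 342 in control rats (+0.30 ± 0.12). All mulberry rats lay above all control rats, narrowly for rats 2 and 4; it was the only 1 of the 106 genes whose groups were apart, while over all genes 0.174% were apart with mulberry higher. Ikbkb, the IKK subunit that phosphorylates IkB, read 586, 415, 462, 418 and 453 in mulberry rats, against 641, 690.0, 430.0, 540.3 and 507 in control rats (-0.25 ± 0.15). Its groups overlapped, and the partner kinase gene Chuk, at 4576 ± 506 in mulberry and 4804 ± 411 in control rats, differed by -0.073 ± 0.10, with a range of -0.12 (without control rat 3) to -0.0022 (without mulberry rat 1). Ikbkg is not analysed here.

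Feedback and target genes were split between both directions. Of 14 feedback genes 11 were tested (7 higher, 4 lower, median +0.013), with the deubiquitinase gene Tnfaip3, a classic NF-kB target, at 414 ± 138 in mulberry and 344 ± 62.0 in control rats (+0.21 ± 0.21), Tax1bp1, which works with it, at +0.16 ± 0.14, and Cyld, a deubiquitinase that acts on Bcl3, at +0.0030 ± 0.13, a sign that turned with quantile normalization and with a median shift and was negative (-0.05) on its other probe set. Tnfaip3 was at 0.055 without mulberry rat 2 and 0.38 without mulberry rat 1, and Tax1bp1 at 0.069 without control rat 3, 0.076 without mulberry rat 4 and 0.040 with array weights. Of 32 textbook target genes 22 were tested, 14 with a higher and 8 with a lower mean (median +0.018). Gadd45b, a stress-response gene, was at 549.9 ± 181 in mulberry and 898 ± 361 in control rats (-0.65 ± 0.29), and Cebpb, a transcription factor of the acute phase, at 3519 ± 843 in mulberry and 4330.0 ± 666 in control rats (-0.32 ± 0.17), or -0.18 without mulberry rat 1. When each rat was left out, Gadd45b ranged between -0.88 and -0.47.

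Partners of Bcl3 and the interleukin-6 pathway, which is known to induce Bcl3, were split as well. Of 16 cofactor genes 14 were tested (8 higher, 6 lower, median +0.0073), with the corepressor genes Ctbp1 at -0.19 ± 0.11 and Hdac1 at +0.24 ± 0.15, or +0.01 on the other Hdac1 probe set. Without mulberry rat 4 these were -0.11 for Ctbp1 and 0.13 for the first Hdac1 probe set. The interleukin-6 and STAT3 list had 21 of 23 genes tested, Bcl3 included (10 higher, 11 lower, median -0.044). Myc was at 222 ± 65.5 in mulberry and 434 ± 230.5 in control rats (-0.84 ± 0.29). Control rat 1 had the highest Myc intensity, at 824, and the Myc difference ranged between -0.98 and -0.58 when each rat was left out. Stat3, the transcription factor that relays interleukin-6, was at 534 ± 109.9 in mulberry and 618 ± 159 in control rats (-0.20 ± 0.18), and Socs3, its feedback inhibitor, at 106 ± 25.3 in mulberry and 121 ± 33.6 in control rats (-0.15 ± 0.21). Stat3 was at -0.065 without control rat 3 and -0.076 without mulberry rat 3, and Socs3 ranged between -0.29 (without control rat 4) and -0.044 (without control rat 3).

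**Figure D5:**
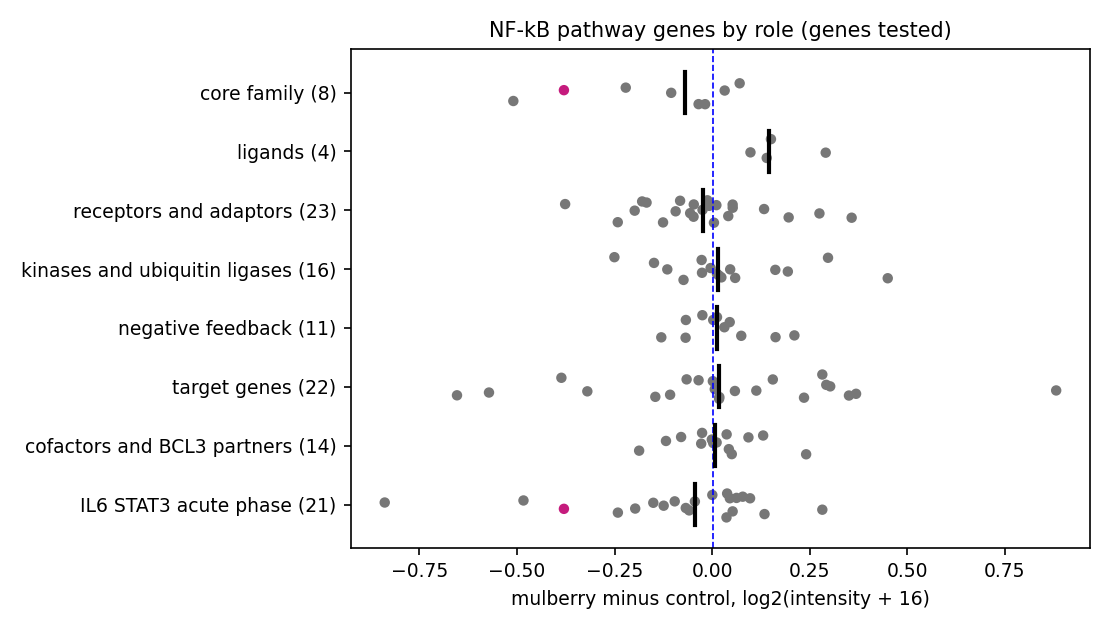
Log2(intensity + 16) difference, mulberry minus control (horizontal axis), for the tested genes of 8 NF-kB pathway lists (rows, number tested in brackets); each point is a gene, Bcl3 is pink, black bars are list medians and the dashed line is the median of all genes. List medians lie between -0.070 for the core family and +0.15 for the 4 ligands.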

How the data were processed

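Per the submitters' processing notes, MAS5 and affy were used, with no version or role given. The deposited values are linear signal intensity, given for 31099 probe sets on each of the 10 arrays. Trimming 2% of values at either end left a mean of 500 for all arrays, with 1 as the smallest intensity, and the scaling was kept. Array medians lay between 97.5 and 118. Precision is limited by the 10 arrays.

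Intensities were put on the scale log2(intensity + 16), which understates changes of dim probe sets. Left out were 57 control probe sets and those at or under the 40th percentile of mean log2 value (6.27, an intensity of 61.1). Mulberry and control rats were compared with limma 3.58.1 in R 4.3.3 (lmFit, eBayes with trend, two-sided), adjusted by Benjamini-Hochberg over 18625 probe sets. The tested probe set with the highest mean stood for a gene (10328 genes). Correlations used Python 3.11.15, numpy 2.4.6, scipy 1.17.1 and pandas 2.3.3; figures used matplotlib 3.10.9. Both steps were tested on simulated data.

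Symbols came from the platform annotation (20826 probe sets with 1 symbol, 436 with several, 9780 with none used here); all 7 genes matched RefSeq by Entrez identifier. The 7 genes and the lists were chosen with earlier results of these data known. The text names all 7 genes, other IkB genes, per list the 2 with the smallest unadjusted p, a few fixed pathway and marker genes, and the 5 highest and 3 lowest correlates of Bcl3. The Kupffer cell and macrophage markers with a lower mean were added to these later. The alternatives changed 1 choice at a time: the pseudocount (1 or 64), the filter (none, or the 60th percentile), the scaling (quantile normalization or a shift to a common median), the limma fit (variance trend dropped, weights for arrays, a replicate block, 1 probe set for each gene), an adjusted p under 0.1, the group means kept, the mean over a gene's probe sets, and each rat left out.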

Additional observations from a re-analysis of the deposited data

Results flagged for a closer look

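In 4 of 84 groups of 5 rats checked, 1 rat stood apart from the rest of its group by Dixon's criterion on the log2 scale, and chance gives about 1 in 20. Mulberry rat 3 had a Nfkbia intensity of 1244, where the other mulberry rats lay between 1899 and 2159.8. Mulberry rat 4 had 567 for Nfkb1, where the other mulberry rats lay between 758 and 842. Control rat 4 had 47.4 for Relb, where the other control rats lay between 94.5 and 116. Control rat 5 had 42.0 for Ltb, where the other control rats lay between 90.2 and 113.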

How the results depend on the processing

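The count of probe sets past the limma threshold stayed at 0 in all 21 alternatives, with between 171 and 878 at an unadjusted p under 0.05, and so did that of pathway genes, the 7 included, with between 4 and 7 of at most 113. The Bcl3 difference stayed negative in all 19 alternatives, between -0.42 and -0.33 on 1398482_at and at -0.25 with the mean of its 3 probe sets. Nfkbia, Nfkb1 and Rela also kept their sign in 19, with ranges of -0.31 to -0.080, -0.20 to -0.0099 and 0.027 to 0.15, while the sign of Nfkbib turned in 2 of 19, that of Nfkb2 in 5 of 18 and that of Relb in 4 of 18, always when a rat was left out. Some of these alternatives could not change a difference. They are both filter settings, the replicate block and, for a gene with 1 probe set, the mean over probe sets. The count of lower means among the 7 genes was 3 of 5 with the 60th percentile filter, which removes Nfkb2 and Relb, and between 3 and 6 when each rat was left out. Pairs past the adjusted threshold stayed at 0 in 19 of 20 alternatives, of which dropping the filter could not change the pairs. The exception is the replicate block below. Cyld turned to -0.014 with quantile normalization, -0.025 with a median shift and -0.010 with array weights, and lay between -0.077 and 0.076 when each rat was left out; Cd163 lay between -0.00020 and 0.25. The cause was not tested. Replicate numbers are shared by the groups, but same-numbered rats' deviations correlated between -0.33 and 0.096 and 1 of 5 matched its own number best, so they do not pair the rats; the replicate block gave 0 probe sets past the threshold, 0 pathway genes and 5 lower means among the 7 genes. For the correlations the replicate block, with group and replicate means removed, put 3 of 21 pairs past the adjusted threshold (Nfkbib with Nfkb1, r = -0.97; Nfkbia with Nfkb2, r = 0.90; Bcl3 with Nfkb1, r = -0.89). Its permutation p-values are not valid and these pairs are not counted as calls, because under this block the residuals of same-numbered rats are mirror images, so the 10 values hold 4 independent ones; that judgement was made after the result was seen. With 10 arrays, SEs of 0.11 to 0.24 limit what can be seen for the 7 genes.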
